A study of Rattus norvegicus with 4 samples.

Results

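The keratins of the inner root sheath and hair shaft, together with the keratin-associated proteins (KAPs), were described in RNA-seq libraries of rat ear skin. Members were all rows listed as protein coding whose symbol named a keratin-associated protein or one of Krt25 to Krt28, Krt31 to Krt40, Krt71 to Krt75 and Krt81 to Krt86. This gave 77 of the 54532 genes in the table, and 26 of the 77 had a count in at least 1 library. Of all 54532 genes, 12902 had one. Both ears of 2 wild-type Sprague Dawley rats were injected with adeno-associated virus (AAV), a carrier that brings a chosen gene into cells. One ear got a control AAV. The other got AAV-Fgf7, whose cargo encodes fibroblast growth factor 7, a growth factor that acts on epithelial cells. Skin at the injection sites was taken on day 3, so that each group held 2 libraries, 1 per rat. Neither the age and sex of the rats nor the cargo of the control virus nor the promoter that drives Fgf7 is stated in the labels. The study, on epithelial repair, compared the ears with each other.

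A hair follicle is a multilayered tube in which a central shaft grows inside an inner root sheath, and both are built from cells of the matrix at the follicle's base. Keratins are filament proteins that assemble from 1 type I and 1 type II partner. The inner root sheath uses its own keratins of both types, the shaft uses the cysteine-rich hair keratins, and KAPs are small proteins of the shaft that fill and crosslink the space between its filaments. Follicles cycle between growth and rest, and these genes are known as products of growing follicles.

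Library totals ran from 1299136 to 1601321 counts. The gene rows are mouse gene models although the animals are rats, and the labels do not say by which step reads reached these rows, so a row may hold only part of a rat transcript's reads and near-identical copies may exchange them. The Fgf7 row, in which reads of the cargo and of the rat's own gene cannot be told apart, was read as a check of the group labels. It cannot show which rat a library came from. Fgf7 had counts of 94 and 110 in the control ears (rat 1, then rat 2), and of 454 and 1429 in the AAV-Fgf7 ears. Over all genes, the quasi-likelihood test of edgeR called 0 of 6370 tested genes at an adjusted p under 0.05, with 148 at an unadjusted p under 0.05, and DESeq2 called 4. The epidermal markers Krt5, Krt14 and Krt10 and the dermal collagen Col1a1 had counts in every library, as skin should, whereas the suprabasal markers Flg, Ivl and Sbsn had none.

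The hair genes were high in 2 of the 4 libraries, 1 of each group, and low in the others. Summed over the 77 members, the level was 41.0 CPM (counts scaled to a common library total) in the control ear of rat 1 and 4391 CPM in its AAV-Fgf7 ear, but 1424 CPM in the control ear of rat 2 and 206 CPM in its AAV-Fgf7 ear. As a share of a library's counts these were 0.00416% (exact binomial 95% interval 0.00312% to 0.00542%), 0.434% (0.423% to 0.445%), 0.134% (0.128% to 0.139%) and 0.0210% (0.0187% to 0.0236%). The AAV-Fgf7 ear therefore held 107 times the control level in rat 1, and in rat 2 the control ear held 6.90 times the AAV-Fgf7 level. Such binomial intervals cover counting error only, as the reads carry no molecular identifiers. The opposite directions in the 2 rats rest on the match of the treated columns to the rats, which the labels leave uncertain. With these columns exchanged, the AAV-Fgf7 ear would hold 5.03 times the control level in rat 1 and 3.08 times in rat 2. In bulk skin, fewer cells of a type and less RNA per cell cannot be told apart.

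**Figure D1:**
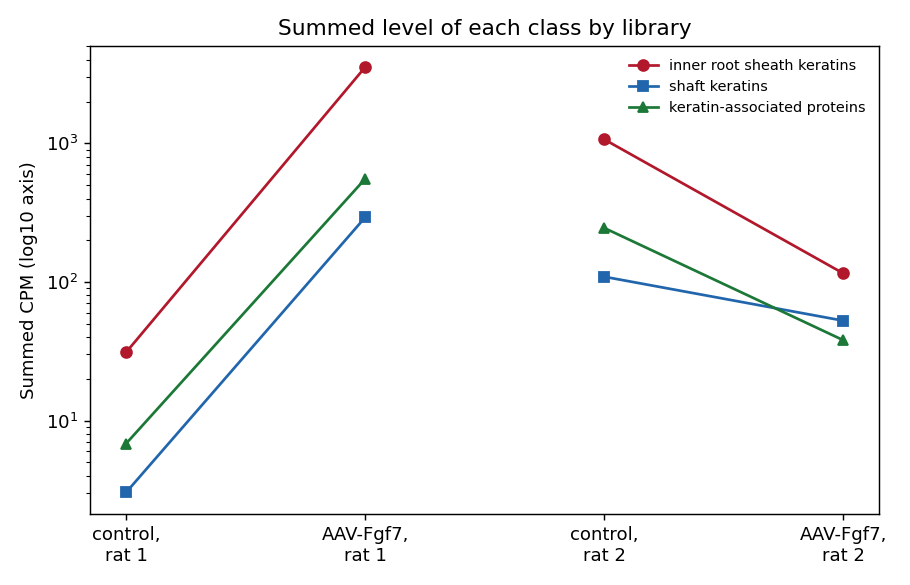
Summed CPM of the inner root sheath keratins (7 genes), shaft keratins (12) and keratin-associated proteins (57) in each library, on a log10 axis. Lines join the 2 ears of a rat, and they rise towards the AAV-Fgf7 ear in rat 1 and fall towards it in rat 2 for all 3 classes.

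Inner root sheath keratins carried most of the counts. Of 7 rows, 5 had a count, and Krt26 and Krt72 had none in any library. All 5 passed the low-count filter. Counts of Krt73, a type II sheath keratin, were 15 and 524 in the control ears (rat 1, then rat 2) and 1451 and 73 in the AAV-Fgf7 ears. Its type II relative Krt71, which pairs with the type I sheath keratins, had 10 and 400 against 1364 and 38. The type I keratin Krt27 had 9 and 507 against 1307 and 45. Each of these was high in the AAV-Fgf7 ear of rat 1 and the control ear of rat 2, and the groups overlapped. For Krt25, another type I sheath keratin, the counts were 7 and 164 against 882 and 10. Krt28 was the scarce one of the class, with 0 and 12 against 15 and 1.

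The size of the difference within a rat was similar among the 4 abundant sheath keratins. In rat 1 the ratio of CPM between the AAV-Fgf7 and the control ear was 90.0 for Krt73 (95% counting interval 54.4 to 161), 135 for Krt27 (70.9 to 296), 127 for Krt71 (68.8 to 265) and 117 for Krt25 (56.6 to 292). These intervals overlap. In rat 2 the ratio of the control to the AAV-Fgf7 ear was 6.90 for Krt73 (5.39 to 8.94), 10.8 for Krt27 (7.98 to 15.04), 10.1 for Krt71 (7.25 to 14.5) and 15.8 for Krt25 (8.36 to 33.5). Summed over the class, the levels were 31.1, 1070, 3545 and 116 CPM in the control ears (rat 1, then rat 2) and the AAV-Fgf7 ears of rats 1 and 2.

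By group, the mean of the class was 550.4 ± 734 CPM with control virus and 1830.1 ± 2425 CPM with AAV-Fgf7 (SD, n = 2). The SD exceeded the mean in both groups. The difference of mean log2(CPM + 1) was 1.79, with an exact two-sided permutation p of 0.667, in a design that cannot give a p below 0.333. It was -0.74 without the control library of rat 1 and -0.67 without the AAV-Fgf7 library of rat 1.

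**Figure D2:**
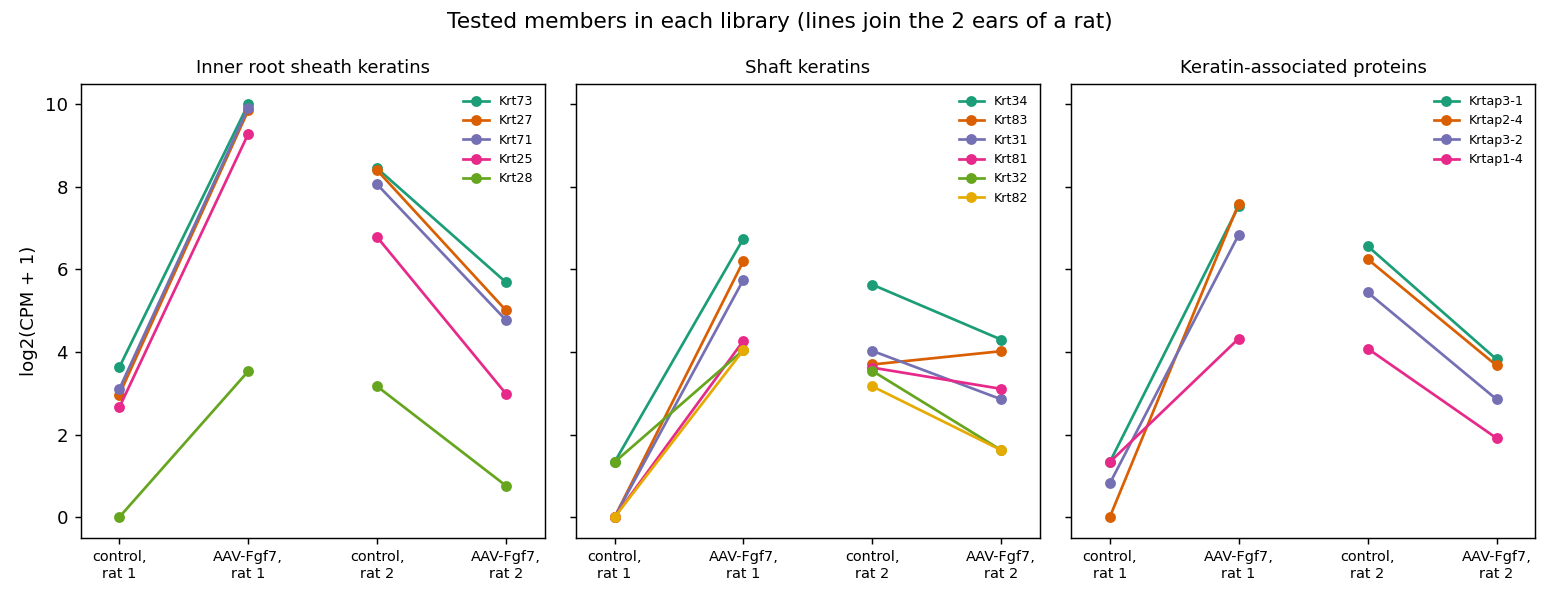
Level of the 15 tested members in each library as log2(CPM + 1), in 3 panels by class, with lines joining the 2 ears of a rat. Every line rises in rat 1, and in rat 2 every line falls except that of Krt83.

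Sheath keratins lie in both keratin clusters: Krt71 and Krt73 are listed on mouse chromosome 15, and Krt25, Krt27 and Krt28 on mouse chromosome 11. The promoters of Krt71 and Krt25 are shown because 1 gene from each cluster stood in the same library order. They are the 250 bases before the annotated start in RefSeq's rat assembly GRCr8, at chr7:134761034-134761283 and chr10:84771198-84771447, both on the minus strand and written 5′ to 3′ along the gene. Capitals mark the TATA box letters TATAAA.
Krt71: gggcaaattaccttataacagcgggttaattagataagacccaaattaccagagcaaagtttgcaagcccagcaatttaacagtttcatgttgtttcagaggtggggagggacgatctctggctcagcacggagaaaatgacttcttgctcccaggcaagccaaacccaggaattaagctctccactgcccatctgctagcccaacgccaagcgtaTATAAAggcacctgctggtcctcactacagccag
Krt25: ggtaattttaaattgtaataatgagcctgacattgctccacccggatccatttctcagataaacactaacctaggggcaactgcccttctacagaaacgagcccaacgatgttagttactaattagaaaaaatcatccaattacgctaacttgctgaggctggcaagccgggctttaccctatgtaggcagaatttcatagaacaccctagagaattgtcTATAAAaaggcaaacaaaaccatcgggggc
The letters began 34 bases before the start in Krt71 and 30 bases before it in Krt25. They also began 49 bases before it in Krt73, 62 in Krt27 and 36 in Krt28, so that all 5 sheath keratins with a count held them. RefSeq promoters (250 bases before to 50 after a start) were found by symbol for 17 of the 26 members with a count. TATAAA, searched on both strands, was in 14 of these 17, against 14.2% of all 33469 promoters of that length.

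Shaft keratins followed the same libraries at lower levels. Of 12 rows, 8 had a count and 6 were tested, while Krt35, Krt36, Krt40 and Krt84 had none. Krt34, a type I keratin of the shaft cortex, had counts of 2 and 73 in the control ears (rat 1, then rat 2) and of 151 and 27 in the AAV-Fgf7 ears. Its close relative Krt31 had 0 and 23 against 75 and 9. Both were lowest in the control ear of rat 1 and highest in the AAV-Fgf7 ear of that rat. Krt32, a type I keratin of the shaft cuticle, had 2 and 16 against 22 and 3.

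Among the type II shaft keratins, Krt83 departed from the others in the order of its libraries, though not beyond counting error. Its counts were 0 and 18 in control ears against 103 and 22 in AAV-Fgf7 ears, so that both AAV-Fgf7 libraries lay above both controls. The step in rat 2 was within counting error, since the ratio of the control to the AAV-Fgf7 ear was 0.787 (95% counting interval 0.398 to 1.54). Krt81 had 0 and 17 against 26 and 11, and Krt82, a keratin of the shaft cuticle, had 0 and 12 against 22 and 3. Krt86 had 0 and 5 against 12 and 1. In rat 2 the ratio of the control to the AAV-Fgf7 ear was 1.49 for Krt81 (0.656 to 3.51). It was 3.85 for Krt82 (1.04 to 21.2) and 4.81 for Krt86 (0.538 to 227). These intervals overlap that of Krt83, and the steps of Krt81 and Krt86 in rat 2 were within counting error too. Krt39, a type I shaft keratin, was seen in 1 library, with 3 counts in the AAV-Fgf7 ear of rat 1.

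A zero count in a library allows up to 3 counts, or 1.997 to 2.278 CPM by library. Against that limit, the AAV-Fgf7 ear of rat 1 held at least 31.9-fold more Krt83, at least 23.3-fold more Krt31 and at least 8.06-fold more Krt81 than its control ear. For Krt34 the ratio was 70.2 (19.1 to 585). In rat 2 the control ear held 2.60 times as much Krt34 (1.65 to 4.21) and 2.46 times as much Krt31 (1.10 to 6.03).

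The class summed to 3.04 and 109 CPM in the control ears (rat 1, then rat 2) and to 292 and 52.6 CPM in the AAV-Fgf7 ears. Group means were 56.1 ± 75.0 and 172 ± 170 CPM (SD, n = 2). The difference of mean log2(CPM + 1) was 2.57, with an exact two-sided permutation p of 0.667, and leaving out the AAV-Fgf7 ear of rat 1 made it 1.35. Krt33a and Krt33b are shaft keratins too, although their symbols fall outside the rule. Krt33a alone had counts of 14 and 458 against 1026 and 133, more than any shaft keratin among the members, and Krt33b had 0 and 18 against 38 and 1. Krt31, Krt33a, Krt33b and Krt34 are close copies of one another, and so are Krt81, Krt83, Krt86 and Krt87, so how the counts are divided within these sets is uncertain.

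Promoters of 3 type I shaft keratins are shown because they share a second set of letters that the abundant sheath keratins lack. These are the 250 bases before the start in GRCr8, on the minus strand at chr10:85474502-85474751 for Krt34, chr10:85483301-85483550 for Krt31 and chr10:85520979-85521228 for Krt32. Capitals mark TATAAA and CTTTGAA, the core to which LEF1 and the TCF factors of the Wnt pathway are known to bind in hair keratin genes.
Krt34: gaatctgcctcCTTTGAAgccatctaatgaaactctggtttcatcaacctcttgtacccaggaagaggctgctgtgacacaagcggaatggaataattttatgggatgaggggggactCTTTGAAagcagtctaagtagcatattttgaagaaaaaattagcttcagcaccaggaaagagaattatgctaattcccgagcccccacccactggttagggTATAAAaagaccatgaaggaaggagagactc
Krt31: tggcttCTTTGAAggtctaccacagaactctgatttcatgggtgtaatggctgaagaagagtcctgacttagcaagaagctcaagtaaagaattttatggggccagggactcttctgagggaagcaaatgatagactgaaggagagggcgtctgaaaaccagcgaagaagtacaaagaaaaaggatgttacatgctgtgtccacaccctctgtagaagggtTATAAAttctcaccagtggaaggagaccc
Krt32: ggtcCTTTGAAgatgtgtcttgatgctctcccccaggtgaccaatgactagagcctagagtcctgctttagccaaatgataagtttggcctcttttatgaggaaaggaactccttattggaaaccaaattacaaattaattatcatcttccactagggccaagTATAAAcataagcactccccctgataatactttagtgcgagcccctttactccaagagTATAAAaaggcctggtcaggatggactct
CTTTGAA began 239 and 132 bases before the start in Krt34, 244 in Krt31 and 246 in Krt32. Searched on both strands, it was in 4 of the 5 shaft keratins with a count and a promoter entry, in 1 of 5 sheath keratins (Krt28) and in 1 of 7 KAPs (Krtap1-5), against 5.40% of all promoters. Of the shaft keratins without a count, Krt36 held it and Krt35, Krt40 and Krt84 did not. Over all 41 members with a promoter entry it was in 10. Among those with a count, TATAAA was in 4 of 5 shaft keratins and 5 of 7 KAPs. A match describes these letters and is not shown to be a binding site. The motifs do not overlap each other in the sequences printed.

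Most rows of the rule were KAPs, and most of them were empty. Of 57 rows, 13 had a count and 4 passed the filter. Over the whole table, with genes of all types, 12902 of 54532 had a count, a similar share to that of the KAP rows. By family, 7 of 18 high sulfur, 4 of 17 ultrahigh sulfur and 2 of 15 high glycine-tyrosine rows had a count, and none of the 7 unclassified rows did. The companion layer keratin Krt75 also had none, which leaves 51 members without a count. Of the 34 members listed on mouse chromosome 11, where type I keratins and several KAP families lie side by side, 17 had a count, against 2 of the 24 on chromosome 16.

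High sulfur KAPs of families 1 to 3 made up nearly all of the signal. Krtap3-1 had counts of 2 and 141 in the control ears (rat 1, then rat 2) and of 261 and 19 in the AAV-Fgf7 ears. Krtap2-4 had 0 and 113 against 272 and 17, and Krtap3-2 had 1 and 64 against 161 and 9. Each was highest in the AAV-Fgf7 ear of rat 1 and next highest in the control ear of rat 2. Krtap1-4 had 2 and 24 against 27 and 4.

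In rat 1 the AAV-Fgf7 ear held 121 times the control level of Krtap3-1 (95% counting interval 33.3 to 1008). Krtap2-4 had no count in that control ear, and the 95% counting interval of its ratio began at 68.1. In rat 2 the control ear held 7.13 times the AAV-Fgf7 level of Krtap3-1 (4.40 to 12.2) and 6.39 times that of Krtap2-4 (3.82 to 11.4). For Krtap1-4 the ratio was 12.6 in rat 1 (3.16 to 109), with an interval that overlaps that of Krtap3-1, and 5.77 in rat 2 (1.98 to 22.9). The class summed to 6.83 and 246 CPM in the control ears and to 554 and 38.1 CPM in the AAV-Fgf7 ears of rats 1 and 2. Group means were 126 ± 169 and 296 ± 365 CPM (SD, n = 2), and the difference of mean log2(CPM + 1) was 1.74 with an exact two-sided permutation p of 0.667. It was -0.74 without the control library of rat 1 and -0.17 without the AAV-Fgf7 library of rat 1.

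Ultrahigh sulfur and glycine-tyrosine KAPs were near the limit of detection. Krtap4-9 had counts of 2 and 9 against 11 and 2, Krtap4-8 had 1 and 3 against 6 and 0, and Krtap5-1 had 1 and 4 against 4 and 0. Krtap8-1 had 0 and 3 against 6 and 0, and Krtap6-2 had 6 counts, all in the AAV-Fgf7 ear of rat 1. Among scarce high sulfur members, Krtap1-3 had 0 and 4 against 15 and 1 and Krtap1-5 had 0 and 2 against 12 and 2. Krtap9-3 and Krtap3-3 had 4 and 3 counts in all. KAP genes of a family are near-identical, so these rows may stand for other copies.

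On a scale per length, the authors' FPKM, the abundant sheath keratins led among the members in the library where all were highest. In the AAV-Fgf7 ear of rat 1 the FPKM was 583 for Krt27, 462 for Krt73, 431 for Krt71 and 306 for Krt25. Krtap3-1 stood at 299 FPKM and Krtap2-4 at 227, beside the much longer keratin Krt25. The shaft keratins among the members were lower per length, with 64.8 FPKM for Krt34, 38.6 for Krt83 and 32.8 for Krt31. They summed to 166 FPKM, and to 527 FPKM with Krt33a and Krt33b, which lie outside the rule. These FPKM levels are of single libraries and carry no replicate error. In the AAV-Fgf7 ear of rat 2, Krtap3-1 (21.4 FPKM), Krt73 (22.9) and Krt27 (19.7) were close to each other, and Krt34 (11.4) was close to Krt71 (11.8).

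Against the fit over all genes, none of the 15 tested members was called. Each had an adjusted p of 0.9996 by edgeR's quasi-likelihood test with Benjamini-Hochberg adjustment, where 0% of all tested genes passed. At an unadjusted p under 0.05 there were 0 of 15 members, against 2.32% of all genes, and DESeq2 called 0 members. The largest log2 fold change, AAV-Fgf7 over control, was that of Krt83 at 2.81 (SE 1.20, unadjusted p = 0.0574 by edgeR). Krt25 stood at 2.44 (SE 1.78), Krt31 at 1.89 (SE 1.35), Krt71 at 1.85 (SE 1.72) and Krtap2-4 at 1.42 (SE 1.62). All 15 log2 fold changes were positive, from 0.28 for Krtap1-4, with a median of 1.42, against a median of -0.02 and 47.8% positive over all genes. The SE had a median of 1.45 over the members and 0.36 over all genes.

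That group comparison rested on single libraries. Without the control library of rat 2, edgeR called 10 of 17 tested members as higher, where it called 0.581% of all genes, with a largest adjusted p of 0.0205 and with the remaining control library assumed to vary like the others. Log2 fold changes ran from 5.29 for Krt34 to 6.15 for Krtap3-2 in the 7 with a count in that control library, and Krtap2-4, Krt83 and Krt31 had none there. With the AAV-Fgf7 ear of rat 1 left out, 12 of 14 log2 fold changes were negative, with a median of -1.67, and none was called. Both AAV-Fgf7 libraries lay above both controls for 1 of 15 members (Krt83), against 14.8% of all genes, and below both for 0, against 13.3%.

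The order of the libraries was shared. From highest to lowest it ran AAV-Fgf7 of rat 1, control of rat 2, AAV-Fgf7 of rat 2 and control of rat 1 in 14 of 15 tested members, with Krt83 as the exception, and in 3.72% of all tested genes. A level over 2-fold higher with AAV-Fgf7 in rat 1 and over 2-fold lower in rat 2, on the scale of CPM + 1, held for 13 of 15 members (not Krt81 or Krt83) and 2.07% of all genes. Both patterns were chosen after their values were seen. The distance from the lowest to the highest library had a median of 6.03 on the log2(CPM + 1) scale over the members and of 0.71 over all genes. It was 7.59 for Krtap2-4 and 2.72 for Krt32, the ends of the members' range.

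**Figure D3:**
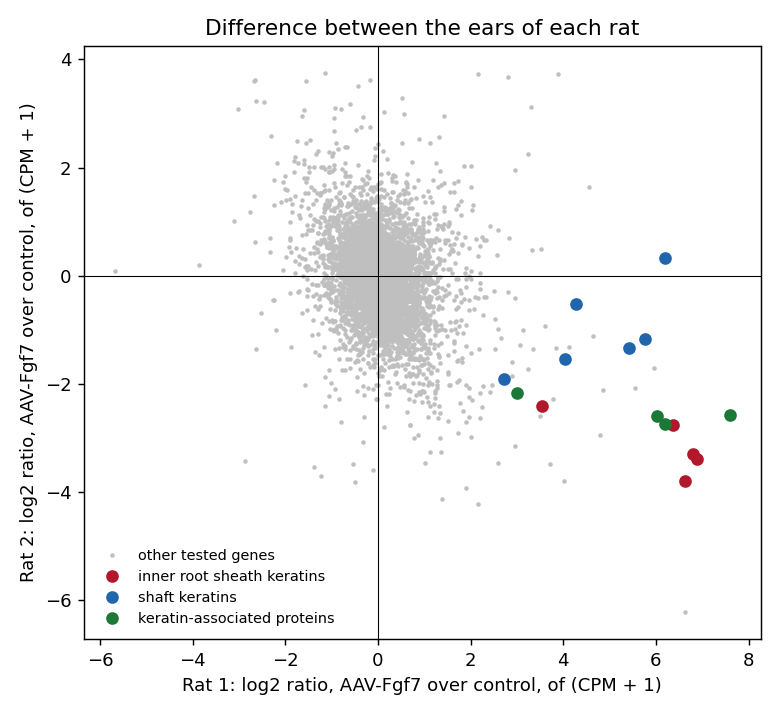
Each point is a tested gene, placed by the log2 ratio of (CPM + 1) between the AAV-Fgf7 and the control ear in rat 1 (x axis) and in rat 2 (y axis). The 15 coloured members lie at 2.72 to 7.59 in rat 1 and, apart from Krt83 at 0.32, below 0 in rat 2, to the right of most other genes, which are grey.

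Among the members alone, sheath and shaft keratins kept a near constant proportion in 3 libraries and another in the remaining one. With shaft keratins outside the rule added, as given below, those 3 libraries were less alike. The sheath share of the counts of both keratin classes was 91.1% in the control ear of rat 1 (95% interval 78.8% to 97.5%, 45 counts) and 90.7% in that of rat 2 (89.3% to 92.0%, 1771 counts). It was 92.4% in the AAV-Fgf7 ear of rat 1 (91.6% to 93.1%, 5433 counts) and 68.7% in that of rat 2 (62.5% to 74.5%, 243 counts). The interval of the AAV-Fgf7 ear of rat 2 does not reach those of the other libraries. The group means were 90.9% ± 0.263 and 80.6% ± 16.7 (SD, n = 2), a difference of -10.4 percentage points with an exact permutation p of 1. With the AAV-Fgf7 ear of rat 2 left out, the difference was 1.45 points.

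Adding Krt33a and Krt33b to the shaft side lowered each share. The sheath share was then 69.5% and 71.5% in the control ears (rat 1, then rat 2) and 77.3% and 44.3% in the AAV-Fgf7 ears. The AAV-Fgf7 ear of rat 2 was again lowest, but the intervals of the control ear of rat 2 (69.6% to 73.4%) and the AAV-Fgf7 ear of rat 1 (76.2% to 78.3%) no longer overlapped. With the type II shaft keratin Krt87 added too, shaft counts were 30 and 832 in the control ears and 1673 and 247 in the AAV-Fgf7 ears. Sheath counts were 41 and 1607 in the control ears and 5019 and 167 in the AAV-Fgf7 ears. The balance of KAPs and shaft keratins also differed in the AAV-Fgf7 ear of rat 2. The KAP share of the KAP and shaft keratin counts was 69.2% in both control ears, 65.5% in the AAV-Fgf7 ear of rat 1 and 42.0% in that of rat 2 (33.4% to 50.9%, 131 counts). This interval lies below those of the control ear of rat 2 (65.1% to 73.1%) and the AAV-Fgf7 ear of rat 1 (62.7% to 68.2%) but overlaps that of the control ear of rat 1 (38.6% to 90.9%, 13 counts). In the library that stood apart, shaft keratins thus held a larger portion beside sheath keratins, and beside KAPs, than in the other libraries. Among the members, sheath keratins still had more counts there than shaft keratins, at 167 against 76.

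The balance of partner types within the sheath moved less. Type II keratins made up 61.0% of sheath keratin counts in the control ear of rat 1 (44.5% to 75.8%) and 57.5% in that of rat 2 (55.0% to 59.9%). They made up 56.1% in the AAV-Fgf7 ear of rat 1 (54.7% to 57.5%) and 66.5% in that of rat 2 (58.8% to 73.6%). Per length, from FPKM, these shares were 55.2% and 50.5% in the control ears and 49.9% and 59.6% in the AAV-Fgf7 ears. The interval of the AAV-Fgf7 ear of rat 2 lies just above that of rat 1. The class sum differed 114-fold between the ears of rat 1 over the same libraries.

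Single sheath keratins differed in how steady their portion was. Krt71 held 24.4% and 24.9% of the sheath keratin counts in the control ears (rat 1, then rat 2), and 27.2% and 22.8% in the AAV-Fgf7 ears. Krt25 held 17.1% and 10.2% against 17.6% and 5.99%, so that its portion was higher in both libraries of rat 1, although the 41 counts of the control ear leave an interval of 7.15% to 32.1%. The interval of Krt25 in the AAV-Fgf7 ear of rat 1 (16.5% to 18.7%) did not overlap that in the control ear of rat 2 (8.77% to 11.8%). As a portion of the shaft keratins, Krt83 made up 10.98% in the control ear of rat 2 (6.64% to 16.8%), and 24.9% (20.8% to 29.3%) and 28.9% (19.1% to 40.5%) in the AAV-Fgf7 ears of rats 1 and 2. It had no count in the control ear of rat 1, where the shaft keratins had 4 in all.

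**Figure D4:**
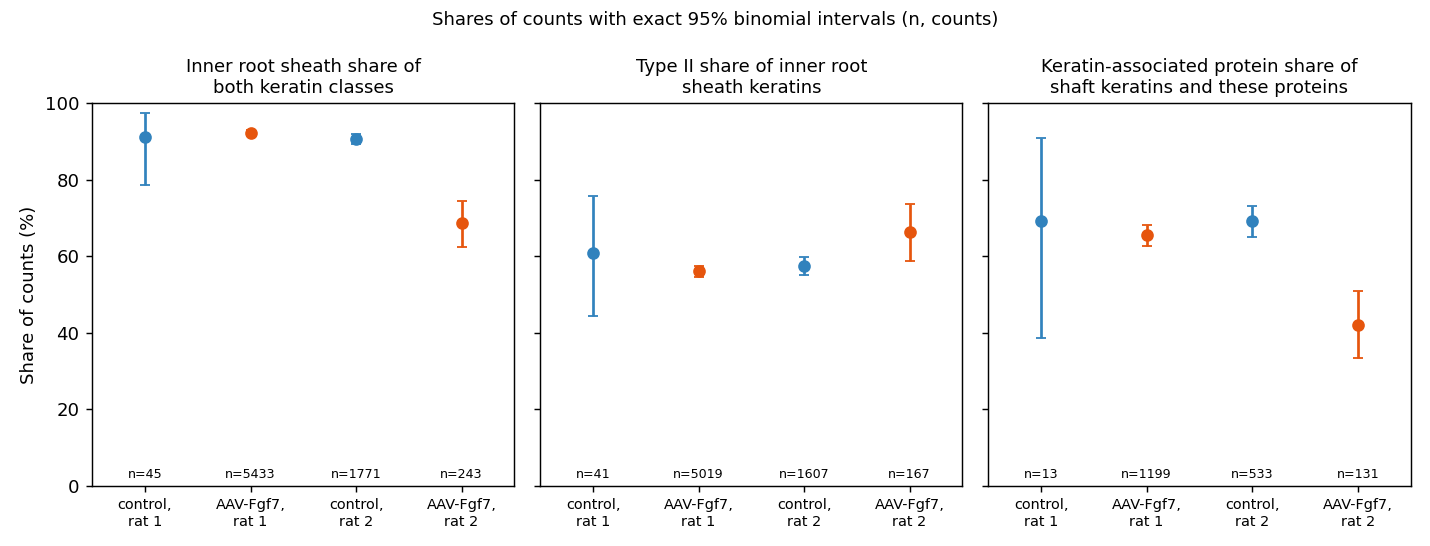
Shares of counts in each library with exact 95% binomial intervals, and n the counts in the denominator, for sheath keratins among both keratin classes, type II among sheath keratins, and KAPs among KAPs and shaft keratins. The AAV-Fgf7 ear of rat 2 stands at 68.7% in the left panel and 42.0% in the right, below the other 3 libraries in each.

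Other genes of follicle differentiation followed the members in part. Of a list of 18 such genes, 10 had a count, 2 were tested, and 0 were called in either direction. Tchh, which encodes the sheath and medulla protein trichohyalin, had counts of 6 and 68 in the control ears (rat 1, then rat 2) and of 225 and 14 in the AAV-Fgf7 ears, the order of the members. Crym, a gene active in the shaft cortex, had 8 and 12 against 39 and 11. Gprc5d, a receptor gene of differentiating hair cells, had 0 and 1 against 21 and 0, and the transglutaminase gene Tgm3 had 2 and 2 against 6 and 12.

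Regulators of the follicle were less uniform. Of 24 genes, 20 had a count and 13 were tested, 9 with positive and 4 with negative log2 fold changes (median 0.19), and 0 were called. The 4 most abundant were Cux1 (345 and 470 against 552 and 378), Trps1 (238 and 254 against 211 and 241), Bmp4 (134 and 164 against 178 and 149) and Ptch1 (77 and 113 against 145 and 73), and none varied as widely as the members. Hoxc13, a homeobox factor known to act on hair keratin genes, had 7 and 57 against 155 and 21, and Dlx3, a homeobox factor of the hair matrix, had 7 and 76 against 127 and 28. Both stood in the members' order, as did Bmp4 by small steps, and Hoxc13 and Dlx3 are named because of their values. Lef1, named for the motif above, had 5 and 3 against 6 and 2.

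Genes of the outer root sheath and bulge, the outer layer and stem cell region of the follicle, varied less as a sum. All 10 had a count, 7 were tested (median log2 fold change 0.39), and 0 were called. Krt15 of bulge cells had counts of 500 and 364 in control ears against 467 and 702, and Sox9 had 84 and 166 against 120 and 71. Krt17, a keratin of the outer root sheath that is also induced in wounds, had 50 and 113 against 186 and 90, and Tcf7l1 had 95 and 131 against 108 and 70. Krt17 and Lhx2 (29 and 62 against 78 and 48) stood in the members' order, 2 of 7 tested genes, and Krt79, a keratin of the upper follicle, ran from 3.99 to 36.7 CPM. Lhx2 and Krt79 are named because of their values. The outer root sheath and bulge list summed to between 583 and 733 CPM in the 4 libraries. Krt15, which is also on the basal keratinocyte list, was the largest part of this sum. It had 380 and 242 CPM in the control ears (rat 1, then rat 2) and 330 and 486 CPM in the AAV-Fgf7 ears. The narrow range of the sum therefore does not describe the other genes of the list.

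Markers of other cells in the ear took other orders. Skeletal muscle markers (9 of 9 with a count) summed to 12842 and 51107 CPM in the control ears (rat 1, then rat 2) and to 27296 and 13718 CPM in the AAV-Fgf7 ears. Cartilage markers (5 of 7, with Matn1 and Cnmd at 0) summed to 361 and 1327 against 659.6 and 357 CPM. Both were high in the same 2 libraries as the hair genes but highest in the control ear of rat 2. Basal keratinocyte markers (6 of 6) were highest in the AAV-Fgf7 ear of rat 2, with 1059 and 873 against 1410 and 3021 CPM. The sum of suprabasal markers (3 of 6) was highest there too, with 909.6 and 583 against 852 and 2569 CPM. It was nearly all Krt10, as Krt1 and Lor had at most 1 count in any library. Sebaceous gland markers (7 of 7) ran from 88.8 to 144 CPM. Fibroblast markers (4 of 6, with Dcn and Lum at 0) ran from 27161 to 39857 CPM. Melanocyte markers (4 of 6, with Pmel and Mlana at 0, and mostly Mitf) ran from 26.3 to 57.2 CPM. The fibroblast and melanocyte sums were highest in the AAV-Fgf7 ear of rat 1 and next highest in the control ear of rat 2. Both were lowest in the AAV-Fgf7 ear of rat 2. The fibroblast sum was mostly Col1a1, and Col3a1 shared its order of libraries, but Col1a2 and Pdgfra did not. Col1a2 had 707 and 715 CPM in the control ears (rat 1, then rat 2) against 547 and 338 CPM, and Pdgfra ran from 15.9 to 17.3 CPM. Endothelial markers (5 of 5) ran from 105 to 128 CPM. The part of these differences between libraries in the hair gene values was not tested.

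**Figure D5:**
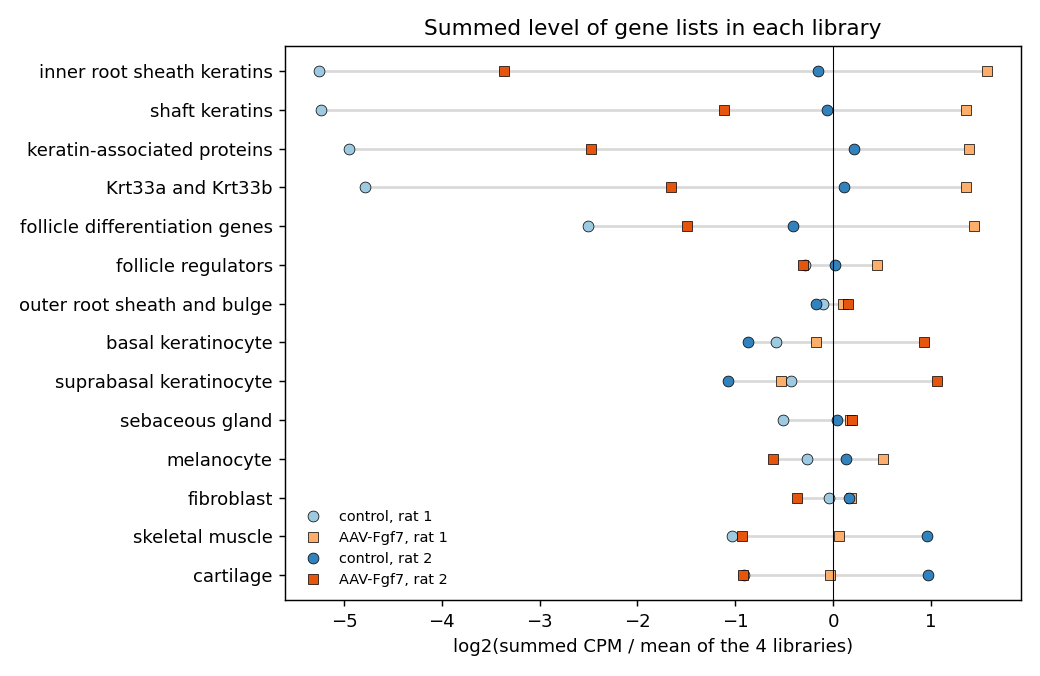
Summed CPM of each gene list in the 4 libraries, as log2 of its ratio to the mean of the 4 libraries. The 3 classes of members and Krt33a with Krt33b span the widest ranges, in the order AAV-Fgf7 of rat 1, control of rat 2, AAV-Fgf7 of rat 2, control of rat 1, whereas keratinocyte lists are highest in the AAV-Fgf7 ear of rat 2.

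Fgf7 was highest in the AAV-Fgf7 ear of rat 2, and the hair genes in that of rat 1. Fgf7 stood at 71.4 and 73.2 CPM in the control ears (rat 1, then rat 2), between which the summed level of the 77 members differed from 41.0 to 1424 CPM. In the AAV-Fgf7 ears it stood at 321 CPM in rat 1 and 989 CPM in rat 2, where the members summed to 4391 and 206 CPM. How the hair gene levels relate to Fgf7 was not tested.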

How the data were processed

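RNA was sequenced from 4 ear skin samples (2 rats, control virus and AAV-Fgf7, day 3). The authors deposited raw counts per gene and FPKM, which divides the counts by gene length and library size. The build named is Rnor_6.0 (rn6), per the submitters' processing notes, whereas the files list mouse Ensembl identifiers and mouse chromosomes. No aligner or counter is given in the sources used here. As both AAV-Fgf7 samples are described by 1 column name, rat 2 was matched to the second treated column by number and title. Every comparison between the ears of a rat depends on this match. Pooled group columns were not used, nor was ear side, on which the titles and the design text differ.

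Genes were filtered (filterByExpr), scaled by TMM and tested across all genes with edgeR 4.0.16 (R 4.3.3), with adjustment over 6370 genes at 0.05. DESeq2 1.42.0 was an alternative. The edgeR script was tested on simulated data. CPM uses TMM-scaled totals (effective totals 1317018 to 1502446). Sums per class were compared as log2(CPM + 1) by exact permutation, and shares carry Clopper-Pearson intervals. The libraries of a group came from different rats, so p-values measure the spread between 2 animals. The ears of a rat share its number, and their deviations from the means of the groups had a correlation of -0.30 (Pearson) across 6370 genes. Spearman's value was -0.26. With 2 libraries per group, exchanging the treated columns would reverse the sign of these values. They therefore cannot show whether the ears of a rat go together, as the match of columns to rats is uncertain.

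Every tested member and each with at least 5 counts is named, and of other lists the 4 most abundant genes. Members, classes and lists were chosen with earlier results of these data known. Protein composition was not analysed here.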

Additional observations from a re-analysis of the deposited data

How the results depend on the processing

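The count of 0 genes called by edgeR held with RLE factors, a mean count of at least 10 and the replicate block by rat, and became 4 with DESeq2 and 3 without a low-count filter. Leaving out 1 library gave 0 to 59 genes (59 without the control library of rat 1, 40 without that of rat 2, 0 without either AAV-Fgf7 library), and 0 to 10 members. The replicate block left 0 members called, and 15 of 15 log2 fold changes were positive under RLE factors, DESeq2, no filter and the block. Leaving out 1 library moved the log2 fold change from -3.05 to 5.87 for Krt25, -2.47 to 6.11 for Krt27, -0.50 to 5.99 for Krt28, -0.33 to 8.37 for Krt31, -1.54 to 2.47 for Krt32, -0.44 to 5.29 for Krt34, -2.39 to 6.02 for Krt71, -1.84 to 5.56 for Krt73, -0.96 to 6.63 for Krt82, -1.66 to 2.78 for Krtap1-4, -1.69 to 10.15 for Krtap2-4, -1.87 to 5.95 for Krtap3-1 and -1.81 to 6.15 for Krtap3-2. Those of Krt81 and Krt83 stayed positive. Values of genes at 0 in the only control library left (Krt28, Krt31, Krt82, Krtap2-4) depend on the prior count. The same step moved the difference of summed levels from -0.74 to 4.32 for sheath keratins and from -0.74 to 4.23 for KAPs, and the difference of sheath share from -22.2 to 1.45 percentage points. For shaft keratins the sum stayed positive (0.19 to 4.96). RLE factors, library totals, FPKM, a pseudocount of 0.1, and leaving out the highest member of a class kept the direction of each sum. A fit that leaves out 1 library has a lone library in 1 group, which is assumed to vary like the others. The 51 members without a count, and the 11 with counts too few to test, could not be compared. Why the 51 had none was not tested.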

Other observations

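Other genes outside the rule stood apart in the same way. With a level over 8-fold higher in rat 1 and a level over 2-fold lower in rat 2, limits set after the values were seen, there were 16 tested genes that are no members, beside 11 members, and 11 of the 16 were highest in the AAV-Fgf7 ear of rat 1. They included the hair genes Krt33a, Krt33b, Krt87, Tchh, Hoxc13 and Dlx3. Krt87, a type II shaft keratin, had counts of 12 and 192 in the control ears (rat 1, then rat 2) and of 195 and 37 in the AAV-Fgf7 ears. Vsig8, which encodes an immunoglobulin domain protein known from the hair follicle, had 62 and 485 against 768 and 76. Gm11562, a gene model with no other name in the files, had 0 and 31 against 65 and 6.

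The 16 genes were not all of the follicle. The slow and cardiac myosin genes Myh7 (2 and 423 against 56 and 28) and Myh6 (10 and 432 against 159 and 36) were highest in the control ear of rat 2. Rpl19, a ribosomal protein gene that every cell uses, had counts of 1 and 111 against 244 and 0. The row Rpl19-ps11, a pseudogene copy by its symbol, did not follow. Its log2 ratio of (CPM + 1), AAV-Fgf7 over control, was -0.33 in rat 1 and 0.08 in rat 2. As near-identical copies may exchange reads, the Rpl19 row may not give the level of that gene.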
